A study of Mus musculus with 21 samples.

Results

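The ordered comparison of stimulation start weeks used 9 of the 21 left ventricle libraries of the study, 3 from each of 3 groups of banded mice. All 3 groups received low-level vagus nerve stimulation (LL-VNS) of 20 min a day at 4 µA and 2 Hz. The VNS20_1w group started at week 1 after aortic banding and was stimulated for 7 weeks, the VNS20_2w group started at week 2 and was stimulated for 6 weeks, and the VNS20_4w group started at week 4 and was stimulated for 4 weeks. All mice were male wild type C57BL/6, 8 weeks old at surgery, and every heart was collected at week 8. Because the collection week was shared, a later start also meant fewer weeks of stimulation, and the start week and the number of weeks cannot be told apart. Current came from a biodegradable triboelectric nanogenerator under the skin, wired to a cuff on the left vagus nerve in the neck. The week of implantation was labelled for the unstimulated device group alone. The remaining 12 libraries serve here as reference levels: banded mice stimulated for 10 min a day from week 1 (VNS10_1w), banded mice with a device implanted at week 1 and left off (AB_Implant), banded mice without a device (AB) and mice with sham surgery (Sham), 3 each.

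Banding narrows the ascending aorta, so the left ventricle pumps against a raised pressure and over weeks grows, stiffens and can fail. Overloaded ventricular myocytes return to genes of the fetal heart, such as those of the natriuretic peptides and skeletal alpha-actin, while fibroblasts lay down collagen. The vagus nerve slows the heart through acetylcholine and the muscarinic M2 receptor, and its stimulation is studied as a counterweight to sympathetic drive. The ordered design asks how gene expression in the ventricle at collection was related to how early the stimulation began.

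The slope of each gene was estimated on the log2 scale per week of later start over the weeks 1, 2 and 4, with edgeR's quasi-likelihood test on the deposited counts. A positive slope means a higher level in mice whose stimulation began later. A total of 11208 genes passed a minimum of 1 CPM, the count of a gene scaled to a common library size, in at least 3 of the 9 libraries. No gene passed a Benjamini-Hochberg adjusted p of 0.05, and the smallest adjusted p was 0.423. The unadjusted p was under 0.05 in 1175 genes (10.5%), 350 with a higher level at later starts (3.12%) and 825 with a lower level (7.36%). With the length slope of each library as a covariate, again 0 genes passed by edgeR (smallest adjusted p 0.143), and 590 genes (5.26%) had an unadjusted p under 0.05, 274 positive (2.44%) and 316 negative (2.82%). DESeq2 called 21 genes without the covariate and 18 with it, and limma on log2 CPM called 0 in both. The genes below are therefore described by their values, and a slope given for any of them did not pass edgeR's threshold.

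The length slope states how strongly the counts of a library leaned to long transcripts, in log2 CPM per log2 of transcript length, relative to the mean of the 9 libraries. In the week-1 group it was 0.0391, 0.588 and -0.168 in replicates 1 to 3, and in the week-2 group it was 0.607, -0.244 and -0.135. The 3 week-4 libraries lay close together, at -0.256, -0.233 and -0.198. A single week-1 library and a single week-2 library thus stood apart from the other 7, and all 3 week-4 libraries were among the short-leaning ones. Centred over all 21 libraries, these long-leaning libraries stood at 0.487 and 0.506, and replicate 2 of the 10 min group at 0.489. Over the 9 libraries the slope of the length measure on start week was -0.131 per week (two-sided exact permutation test over 1680 arrangements, p = 0.151, adjusted over 4 library measures 0.469). The share of counts on the 13 mitochondrial genes was 37.5% to 55.3% (1.30 percentage points per week, exact permutation p = 0.454, adjusted p = 0.606). Library totals were 11577509 to 19414865 counts.

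**Figure D1:**
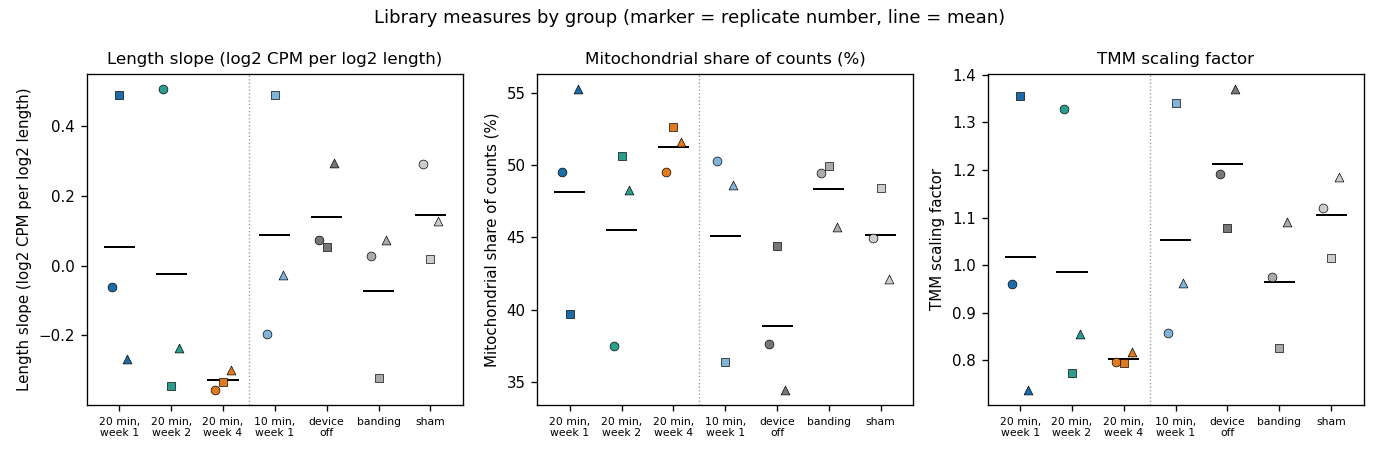
Length slope (log2 CPM per log2 of transcript length, centred over all 21 libraries), mitochondrial share of counts (%) and TMM scaling factor for each library, by group, with the group mean as a line and marker shapes for replicate numbers 1, 2 and 3. The 20 min groups lie left of the dotted line, where the 3 week-4 libraries sit together and replicate 2 of week 1 and replicate 1 of week 2 lie far above the rest in length slope.

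Genes lower with a later start were longer and less GC-rich than genes higher with a later start. Among the 825 genes with a negative slope at unadjusted p under 0.05 the median transcript length was 4563 bases and the median GC content 47.9%. Among the 350 with a positive slope these were 2277 bases and 55.4%, against 3331 bases and 50.04% over all tested genes. With the covariate the medians were 3223 bases and 49.3% for the negative genes and 3205 bases and 52.3% for the positive ones. The covariate was estimated from these same genes and libraries, so a smaller gap in length was built into that fit. It can also take up part of a true trend on start week. Part of the gap in GC content was still there.

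The gene with the smallest p in the fit without the covariate was Scand1, which encodes a small nuclear protein with a SCAN domain (GRCm38 chr2:156311847-156312704). Its level was 0.503, 0.127 and 0.998 CPM in the week-1 group, 0.388, 3.33 and 1.49 CPM in the week-2 group, and 36.5, 28.7 and 4.43 CPM in the week-4 group. Every week-4 library was above every library of the earlier starts, and replicate 3 of week 4 was well below the other two. The slope was 1.85 ± 0.29 per week (SE over 9 libraries; edgeR adjusted p = 0.423), and 1.48 ± 0.24 with the covariate (adjusted p = 0.143). In the 10 min group, which also began at week 1, Scand1 stood at 34.0, 14.0 and 27.5 CPM. The AB_Implant libraries held 21.3, 25.1 and 16.2 CPM and the AB libraries 32.8, 47.8 and 22.4 CPM. Replicates 1 and 2 of week 4 thus lay in the range of the other banded groups, and replicate 3 lay below all 9 of their libraries, as did all libraries of weeks 1 and 2. The Sham libraries held 1.65, 2.81 and 19.5 CPM. With the 10 min group in place of VNS20_1w the Scand1 slope was 0.06 without the covariate and -0.25 with it.

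The 300 bases around the start of Scand1, 250 before and 50 after, are printed from RefSeq (GRCm38.p6, minus strand, chr2:156312655-156312954), because this gene had the steepest positive slope among those named. No letters are in capitals, since this window holds no E-box (CACGTG), the motif shown for the clock genes further on. GC bases make up 61.3% of it, close to the median of 61.0% over the first listed promoter of each tested gene (52.7% over all 27025 genes with an entry).
Scand1: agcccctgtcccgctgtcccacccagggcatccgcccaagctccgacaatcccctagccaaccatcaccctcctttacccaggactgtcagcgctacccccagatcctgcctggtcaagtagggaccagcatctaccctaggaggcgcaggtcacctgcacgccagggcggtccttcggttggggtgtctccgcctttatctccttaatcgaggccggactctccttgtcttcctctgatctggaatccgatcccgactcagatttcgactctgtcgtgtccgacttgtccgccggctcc

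Zfp771, a zinc finger gene, and Hnrnpa0, an RNA-binding protein gene, had the next smallest p in the positive direction. Zfp771 was at 2.77, 0.892 and 1.70 CPM in week 1, 1.2, 5.43 and 3.21 CPM in week 2, and 33.5, 27.9 and 7.54 CPM in week 4 (slope 1.26 ± 0.21; edgeR adjusted p = 0.423). Hnrnpa0 was at 4.71, 2.87 and 2.5 CPM, then 6.32, 10.9 and 8.13 CPM, then 21.3, 27.8 and 10.6 CPM (slope 0.81 ± 0.14). In Hnrnpa0 week 1 and week 2 did not overlap either, while the lowest week-4 library lay below the highest week-2 library. In the 10 min group Hnrnpa0 reached 32.5, 33.2 and 38.0 CPM, above all 9 libraries of the 20 min groups. With that group as week 1 the Hnrnpa0 slope was -0.19 without the covariate and -0.27 with it, and the Zfp771 slope was 0.17 and -0.10.

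Nkx2-5, a homeodomain factor of the cardiac myocyte lineage, showed the same order. It was at 10.6, 4.78 and 9.68 CPM in week 1, 8.65, 32.4 and 21.2 CPM in week 2, and 62.8, 42.3 and 24.4 CPM in week 4 (slope 0.74 ± 0.17, and 0.51 ± 0.12 with the covariate). The week-1 and week-4 libraries did not overlap, and week 2 overlapped both. The AB libraries held 57.0, 55.5 and 42.4 CPM. Emc6, a subunit of the endoplasmic reticulum membrane protein complex, was at 31.4, 14.1 and 30.8 CPM, 16.4, 65.2 and 48.9 CPM, and 119.5, 94.0 and 74.5 CPM in the order of the start weeks. All 3 week-4 libraries exceeded the others, and its slope with the covariate, 0.40 ± 0.06, had the smallest p of that fit in the positive direction (edgeR adjusted p = 0.143). Unlike Scand1 and Hnrnpa0, Emc6 was higher in week 4 than in every VNS10_1w library (72.4, 51.7 and 67.1 CPM), and its slope with the 10 min group as week 1 was 0.24 without the covariate and 0.03 with it.

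H2afj, a histone H2A variant gene, Ccdc85b, a coiled-coil protein gene, and Pgp, the phosphoglycolate phosphatase gene, completed the positive side without the covariate, with slopes of 0.79 ± 0.18, 0.93 ± 0.22 and 0.38 ± 0.09. With the covariate the list also took in Dnlz (0.31 ± 0.05), a mitochondrial chaperone partner, Gadd45gip1 (0.26 ± 0.05), a mitochondrial ribosome component, and Ssbp4 (0.27 ± 0.06), a nuclear single-stranded DNA binding protein. In each of these genes the week-1 and week-4 libraries did not overlap, which the naming rule required. Over all tested genes, 1273 (11.4%) were higher without overlap in week 4 and 1477 (13.2%) were lower.

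**Figure D2:**
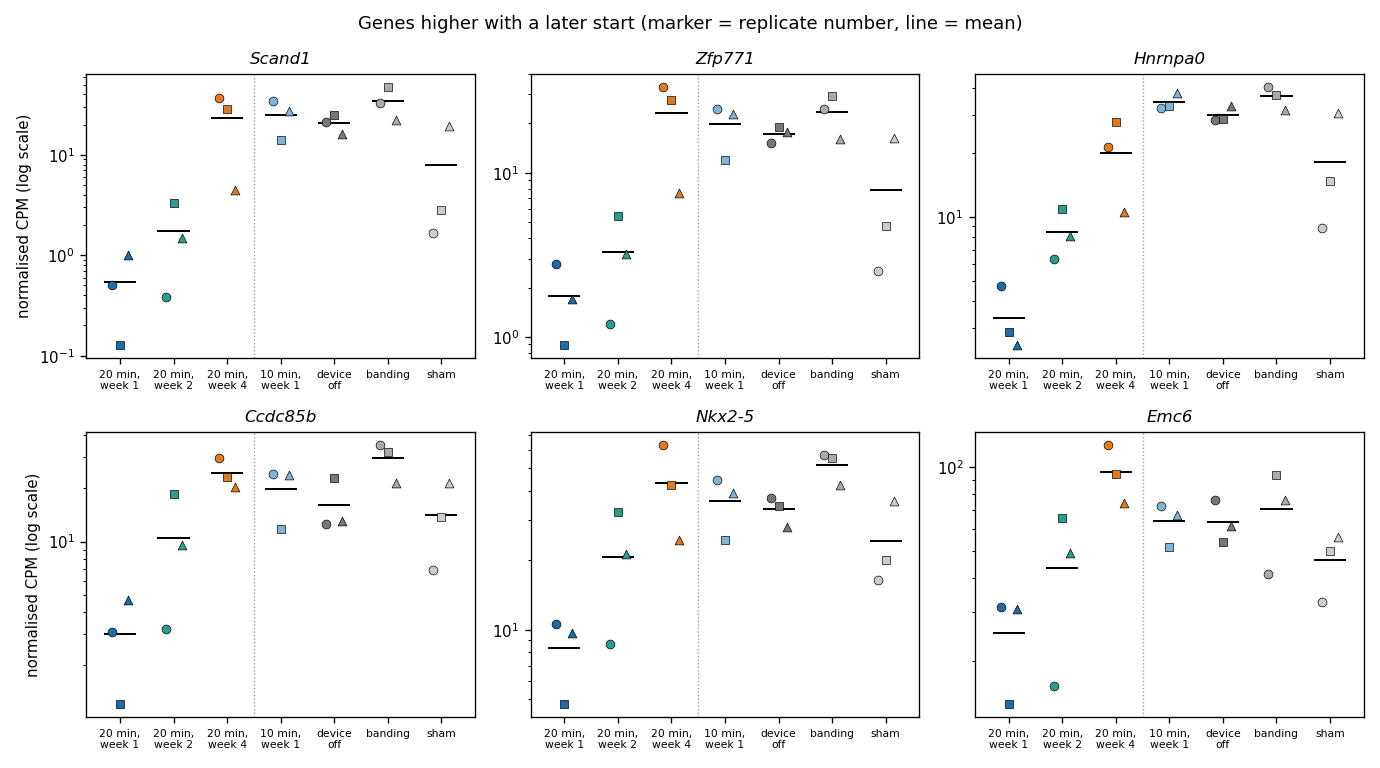
TMM-normalised CPM on a log axis in each library for 6 genes with positive slopes, by group, with the arithmetic group mean as a line and marker shapes for replicate numbers 1, 2 and 3. Left of the dotted line the levels climb from the week-1 to the week-4 start, and right of it the 10 min, device-off and banded groups lie near the week-4 level in Scand1, Zfp771 and Nkx2-5.

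Calls on these genes depended on single libraries and on the tool. DESeq2 called Scand1 (adjusted p = 1.43e-06), Zfp771 (3.50e-05), Hnrnpa0 (6.89e-05), Ccdc85b (0.0122), Nkx2-5 (0.0222), H2afj (0.0222) and Emc6 (0.0344) without the covariate. Without replicate 3 of week 4, the library in which Scand1 and Zfp771 were lowest among the 3, edgeR called 9 genes in the fit with the covariate, among them Scand1, with a slope of 1.69 (adjusted p = 3.58e-05), and Hnrnpa0, with 0.84 (adjusted p = 0.0132). Without the pair of libraries with a length slope above 0.3, edgeR without the covariate called 4 genes, among them Scand1, Zfp771 and Emc6 (adjusted p = 0.0390 for each). With the covariate that setting called 0 genes by edgeR, and Scand1, Zfp771 and Emc6 each had an adjusted p of 0.960. Leaving out replicate 3 of week 4 gave 0 edgeR calls without the covariate (smallest adjusted p 0.136). Leaving out replicate 3 of week 1 gave 0 edgeR calls with the covariate (smallest adjusted p 0.985).

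The immediate early genes are transcription factors and feedback regulators that cells induce within minutes of a stimulus without new protein synthesis. Of the 28 listed, 24 were tested, and 13 had a positive slope at unadjusted p under 0.05 and 0 a negative one, against 3.12% and 7.36% of all genes. With the covariate these were 11 and 0, against 2.44% and 2.82%. The median slope of the list was 0.31 (0.28 with the covariate), beside -0.01 over all genes in both fits. Fosb, Egr2, Egr3 and Nr4a2 did not pass the filter.

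Jund, an AP-1 subunit gene, was at 14.3, 2.93 and 6.59 CPM in week 1, 7.80, 38.4 and 25.7 CPM in week 2, and 73.4, 55.0 and 36.2 CPM in week 4 (slope 0.86 ± 0.22; edgeR adjusted p = 0.423). Nr4a1, an orphan nuclear receptor gene, was at 16.0, 6.24 and 8.59 CPM, 6.48, 19.8 and 21.9 CPM, and 63.5, 40.8 and 23.1 CPM (slope 0.68 ± 0.16). In both genes the week-4 libraries lay above all week-1 libraries, and in Nr4a1 also above all week-2 libraries. Jun was at 27.8, 17.1 and 19.8 CPM, 22.8, 25.7 and 27.1 CPM, and 31.5, 37.3 and 36.9 CPM (slope 0.24 ± 0.07), a smaller difference in the same order.

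Cebpb, a leucine zipper factor of stress and acute phase responses, was at 1.57, 0.191 and 0.699 CPM in week 1, 0.931, 2.76 and 4.14 CPM in week 2, and 5.46, 22.1 and 2.38 CPM in week 4 (slope 1.14 ± 0.29). Its 10 min libraries held 48.0, 32.1 and 66.0 CPM and its AB_Implant libraries 44.9, 38.9 and 35.1 CPM, all above every one of the 9 libraries in the trend. Other members were less steady. Egr1 was at 2.24, 12.7 and 3.28 CPM in week 4, and Atf3, a stress-induced factor, at 19.8, 1.33 and 1.48 CPM. Atf3 had a slope of 0.76 ± 0.34, which was -0.03 without replicate 1 of week 4.

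The summed level of the immediate early list was 169.5 to 229 CPM in week 1, 199 to 348 CPM in week 2 and 328 to 438 CPM in week 4. The sums of week 1 and week 4 did not overlap. The 10 min group, also started at week 1, held 383 to 511 CPM, AB_Implant 506 to 633 CPM, AB 327 to 599 CPM and Sham 208 to 773 CPM. With the 10 min group in place of VNS20_1w, 3 of 23 tested members were positive and 2 negative at unadjusted p under 0.05, against 5.49% and 11.6% of all genes, and the median slope was -0.02. In the fit with the covariate 0 were positive and 3 negative, against 3.51% and 5.46% of all genes. That replacement changes the week-1 group to another session length, and the 2 week-1 groups share no animals.

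The circadian clock is a feedback loop in which Arntl and Clock activate the Per and Cry genes, whose proteins then repress that activation, while Nr1d1 and Nr1d2 encode repressors of Arntl. Dbp and Tef are output factors, and Per and Cry transcripts swing over the day in the heart. Labels placed the stimulation in the morning for all groups, and the hour at which hearts were taken was not given in them. Of 20 listed clock genes 17 were tested (Clock, Npas2 and Rora did not pass the filter). At unadjusted p under 0.05, 5 had a negative slope (Per2, Per3, Cry1, Nr1d2 and Tef) and 1 a positive one (Nr1d1), against 7.36% and 3.12% of all genes. With the covariate the count was 2 negative (Per2 and Cry1) and 1 positive (Nr1d1), against 2.82% and 2.44%.

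Per2 (chr1:91415982-91459324) was at 12.2, 21.4 and 9.48 CPM in week 1, 19, 3.52 and 3.99 CPM in week 2, and 1.79, 2.5 and 2.13 CPM in week 4. The 3 week-4 libraries were the lowest of the 9, and replicate 1 of week 2, a long-leaning library, lay with the week-1 values. The slope was -0.93 ± 0.22 per week (edgeR adjusted p = 0.423), and -0.60 ± 0.09 with the covariate, where it had the smallest p of all genes (edgeR adjusted p = 0.143). DESeq2 called it in both fits (adjusted p = 0.0111 and 9.91e-05). The slope with the 10 min group as week 1 was -0.94, and -0.50 with the covariate, where VNS10_1w held 6.29, 23.9 and 13.9 CPM. The library with 23.9 CPM, replicate 2, was itself long-leaning. That setting therefore kept a long-leaning library in week 1, also for Cry1 and Ndrg1 below. Per2 was at 12.8, 3.33 and 5.53 CPM in AB and at 7.26, 2.21 and 14.3 CPM in Sham, so single libraries of the unstimulated groups came close to the week-4 level.

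Cry1 (chr10:85131700-85185064) was at 8.17, 11.9 and 9.58 CPM in week 1, 10.2, 8.29 and 6.96 CPM in week 2, and 5.10, 4.92 and 4.59 CPM in week 4 (slope -0.35 ± 0.08; -0.27 ± 0.07 with the covariate). All week-4 libraries were below all others of the trend, and the spread within each start group was small. Cry1 was at 5.15, 5.93 and 11.4 CPM in Sham, 12.7, 5.78 and 10.0 CPM in AB and 9.13, 13.4 and 15.6 CPM in AB_Implant. Single libraries of Sham and AB thus came close to the week-4 level. With the 10 min group as week 1 the slope was -0.40 without the covariate and -0.30 with it.

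Nr1d1 had a slope of the opposite sign, with 30.8, 33.5 and 33.1 CPM in week 1, 17.2, 35.4 and 40.2 CPM in week 2, and 39.7, 63.8 and 82.6 CPM in week 4 (slope 0.34 ± 0.11; 0.25 ± 0.11 with the covariate). The week-2 libraries lay on both sides of the week-1 libraries. The output factor Dbp was at 84.1, 41.2 and 95.0 CPM, 16.1, 61.4 and 59.7 CPM, and 86.2, 154 and 131 CPM (slope 0.30 ± 0.17; edgeR adjusted p = 0.423). In Nr1d1 the week-1 and week-4 libraries did not overlap, and in Dbp they did.

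Tef, Per3 and Nr1d2 had their highest values in the pair of long-leaning libraries. Nr1d2 was at 7.42, 33.5 and 2.1 CPM, 23.9, 1.52 and 2.82 CPM, and 1.52, 1.75 and 1.89 CPM, with a slope of -1.04 ± 0.39 that was -0.20 ± 0.10 with the covariate and 0.05 in the fit with the covariate that left those libraries out. The Tef slope was -0.71 ± 0.26 without the covariate and -0.20 ± 0.09 with it, and that of Per3 was -0.75 ± 0.28 and -0.20 ± 0.13. Chosen after its values were seen, Arntl is given with the week-2 group below.

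E-boxes, the motif CACGTG to which the Arntl and Clock proteins bind, were counted on RefSeq promoter windows of 250 bases before to 50 after a gene start (the motif reads the same on both strands). A gene with several windows was counted if any of them held the motif. Of the 17 listed clock genes with an entry, 5 held at least one (29.4%). This compares with 8.09% of all 27025 genes with an entry and 11.9% of the 8831 tested genes with one. A match describes the letters of the window and shows no binding. The windows of Cry1 (GRCm38.p6 chr10:85185005-85185304, minus strand, 1 E-box) and Ciart (chr3:95882179-95882478, minus strand, 3 E-boxes) are shown because these genes differed between start groups without overlap and hold the motif, in capitals here. Per2 had no entry.
Cry1: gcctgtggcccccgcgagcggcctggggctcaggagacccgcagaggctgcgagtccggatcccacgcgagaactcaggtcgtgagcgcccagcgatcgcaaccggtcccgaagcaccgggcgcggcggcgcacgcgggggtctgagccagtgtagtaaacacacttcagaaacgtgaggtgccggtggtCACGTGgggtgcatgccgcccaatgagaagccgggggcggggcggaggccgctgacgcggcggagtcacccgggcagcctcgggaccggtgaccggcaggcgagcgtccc
Ciart: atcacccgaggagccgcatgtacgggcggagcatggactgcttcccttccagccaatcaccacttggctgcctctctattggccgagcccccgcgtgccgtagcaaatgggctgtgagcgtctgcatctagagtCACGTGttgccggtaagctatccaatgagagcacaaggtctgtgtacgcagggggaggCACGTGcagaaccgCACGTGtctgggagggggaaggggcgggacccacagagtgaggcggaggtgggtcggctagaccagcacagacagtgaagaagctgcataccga

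**Figure D3:**
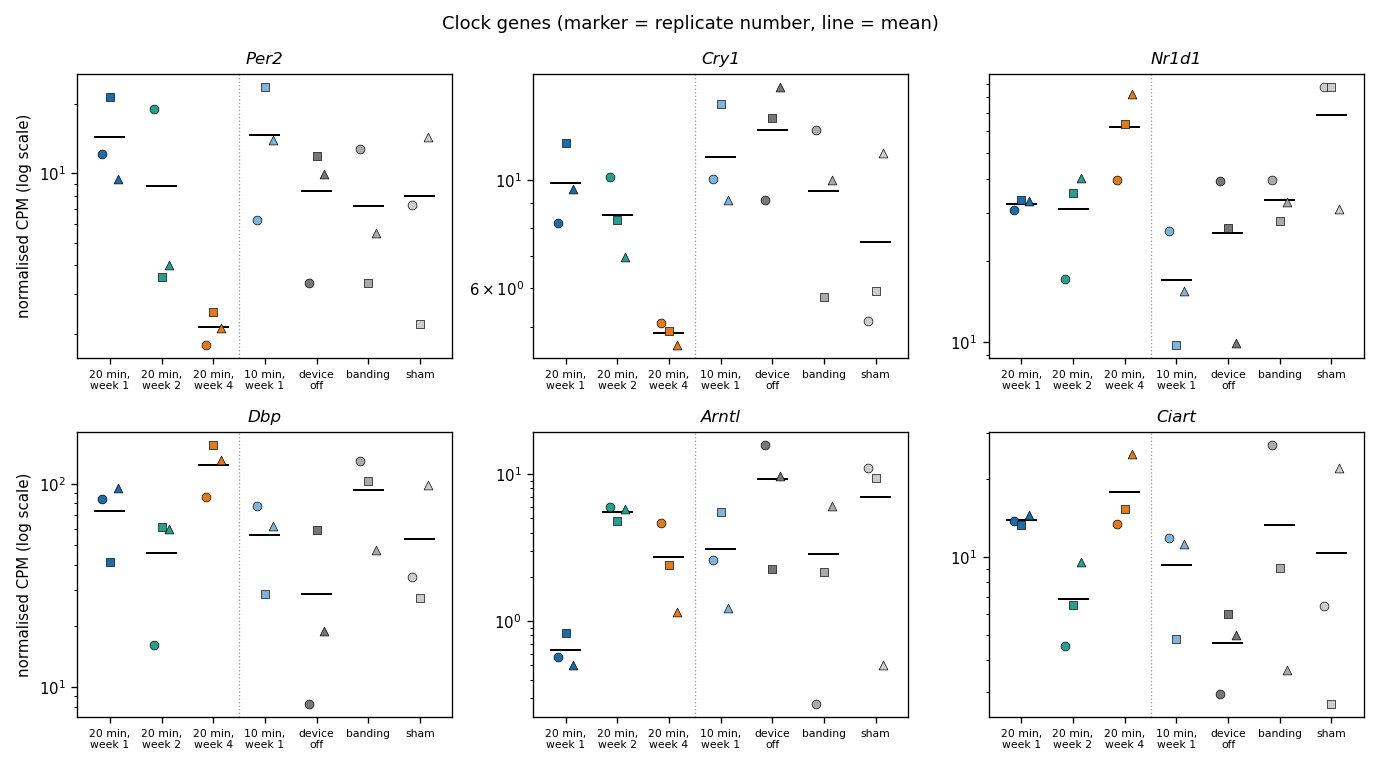
TMM-normalised CPM on a log axis in each library for 6 clock genes, by group, with the arithmetic group mean as a line and marker shapes for replicate numbers 1, 2 and 3. Per2 and Cry1 are lowest in the week-4 start and Nr1d1 highest among the 20 min groups, while Arntl and Ciart depart from that order in week 2, and the reference groups to the right are spread widely.

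Among the leading genes with negative slopes outside the clock were Ndrg1, a hypoxia- and stress-responsive gene, Wee1, a kinase gene that restrains entry into mitosis, and Perm1, a muscle gene that promotes mitochondrial gene programmes. Ndrg1 was at 8.92, 10.9 and 8.19 CPM in week 1, 11, 4.38 and 5.55 CPM in week 2, and 2.42, 3.59 and 3.44 CPM in week 4 (slope -0.53 ± 0.12; -0.38 ± 0.08 with the covariate; edgeR adjusted p = 0.423 and 0.649). Wee1 was at 10.6, 9.88 and 8.79 CPM, 8.11, 4.76 and 3.21 CPM, and 3.40, 3.84 and 4.67 CPM (slope -0.41 ± 0.12). In both genes week 1 and week 4 did not overlap, which the naming rule required, as it did for Per2 and Cry1. Of all tested genes 13.2% were lower without overlap in week 4. Week 2 overlapped week 1 in Ndrg1 and week 4 in Wee1. The Ndrg1 slope with the 10 min group as week 1 was -0.48.

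Bsdc1, Sbk1, Usp10 and Zfp62 filled the remaining places without the covariate, with slopes from -0.45 ± 0.13 in Zfp62, a zinc finger gene, to -0.20 ± 0.06 in Usp10, a deubiquitinase gene. With the covariate Thrap3 (-0.17 ± 0.04), which encodes a splicing and transcription cofactor, and Perm1 (-0.14 ± 0.04) had places. Perm1 was at 161, 255 and 149 CPM in week 1, 281, 124 and 139 CPM in week 2, and 91.5, 101 and 106 CPM in week 4, and its highest values were those of the pair of long-leaning libraries.

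The fetal and hypertrophy genes mark the response of the ventricle to load. Of 21 tested, 5 had a positive slope at unadjusted p under 0.05 (Nppa, Acta1, Xirp2, Gdf15 and Pdlim1) and 0 a negative one, against 3.12% and 7.36% of all genes. The median slope was 0.13, with 16 of 21 positive. With the covariate 1 was positive and 1 negative at that threshold, near the 2.44% and 2.82% of all genes, and the median was 0.11. Without replicate 1 of week 4 the count was 0 positive and 0 negative.

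Acta1, skeletal alpha-actin, was at 2862, 685 and 761 CPM in week 1, 1529, 2452 and 6816 CPM in week 2, and 10930, 8196 and 2404 CPM in week 4 (slope 0.73 ± 0.25; edgeR adjusted p = 0.423; 0.51 ± 0.24 with the covariate). Replicate 3 of week 4 lay inside the week-1 range, so the groups overlapped. Nppa, the atrial natriuretic peptide gene, was at 801, 237 and 880.0 CPM, 282, 826 and 2462 CPM, and 5412, 2477 and 943 CPM (slope 0.72 ± 0.26; 0.40 ± 0.20 with the covariate). All week-4 libraries exceeded all week-1 libraries in Nppa, though by little in replicate 3. In the unstimulated AB_Implant group Nppa was at 5405, 1320 and 4512 CPM and in AB at 397, 1479 and 860.0 CPM, and in the 10 min group at 539, 427 and 477 CPM.

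Gdf15, a stress-induced cytokine gene, had a slope of 0.81 ± 0.26, with 15.4, 2.42 and 3.20 CPM in week 4 against 1.82, 0.956 and 0.898 CPM in week 1. Nppb, the B-type peptide gene, had a slope of 0.45 ± 0.25, Myh7, the slow myosin heavy chain of the fetal ventricle, 0.07 ± 0.11, and Myh6, its adult counterpart, -0.13 ± 0.10, each with an edgeR adjusted p above 0.4. Atp2a2, which pumps calcium into the sarcoplasmic reticulum, had a slope of -0.25 ± 0.12, which was -0.08 ± 0.05 with the covariate. The mean of Gdf15 was 1.23 CPM in week 1 and 7.01 CPM in week 4, that of Nppb 397 and 1204 CPM, and that of Myh7 1104 and 1186 CPM.

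Extracellular matrix genes are made mostly by fibroblasts, and in a bulk sample fewer cells of a type and less RNA per cell cannot be told apart. Of 39 tested, 35 had positive slopes, 6 of them at unadjusted p under 0.05 (Col1a1, Col6a2, Loxl1, Mmp14, Cilp and Tgfb1), and Timp3, an inhibitor of matrix proteases, had a negative one. Of all genes 48.35% had a positive slope, 3.12% were positive at that threshold and 7.36% negative. The median slope was 0.15 (0.14 with the covariate, where 5 were positive and 0 negative at that threshold, against 2.44% and 2.82% of all genes). This count was 1 positive without replicate 1 of week 4 and 15 positive without replicate 3 of week 4.

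Loxl1, which crosslinks elastin and collagen, was at 21.2, 12.9 and 20.0 CPM in week 1, 15.9, 32.0 and 48.5 CPM in week 2, and 61.4, 55.1 and 33.6 CPM in week 4 (slope 0.46 ± 0.13; 0.30 ± 0.10 with the covariate; edgeR adjusted p = 0.423 and 0.891). Its week-1 and week-4 libraries did not overlap. Col1a1, a chain of type I collagen, was at 76.1, 42.9 and 53.9 CPM, 50.7, 88.0 and 118 CPM, and 162, 118 and 73.3 CPM (slope 0.33 ± 0.12), and replicate 3 of week 4 lay below the highest week-1 library. Col3a1 (0.27 ± 0.13) and Postn, periostin of activated fibroblasts (0.30 ± 0.16), had positive slopes at unadjusted p of 0.0592 and 0.0861. Timp3 was at 12.2, 29.5 and 3.29 CPM, 43.9, 4.00 and 4.54 CPM, and 2.69, 2.08 and 3.94 CPM, with its highest values in the long-leaning libraries (slope -0.88 ± 0.39; -0.16 ± 0.11 with the covariate).

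With the 10 min group as week 1, 17 of 39 matrix genes were positive and 1 negative at unadjusted p under 0.05, against 5.49% and 11.6% of all genes, and the median slope was 0.26. Col1a1 was at 28.9, 30.2 and 23.1 CPM in VNS10_1w, under every other library of the stimulated groups. The summed fibroblast markers were 1067 to 1838 CPM in week 1, 1338 to 1888 CPM in week 2 and 1843 to 2346 CPM in week 4, with 2 of 11 markers positive at unadjusted p under 0.05 and 0 negative, against 3.12% and 7.36% of all genes. Their part in the matrix values was not tested.

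**Figure D4:**
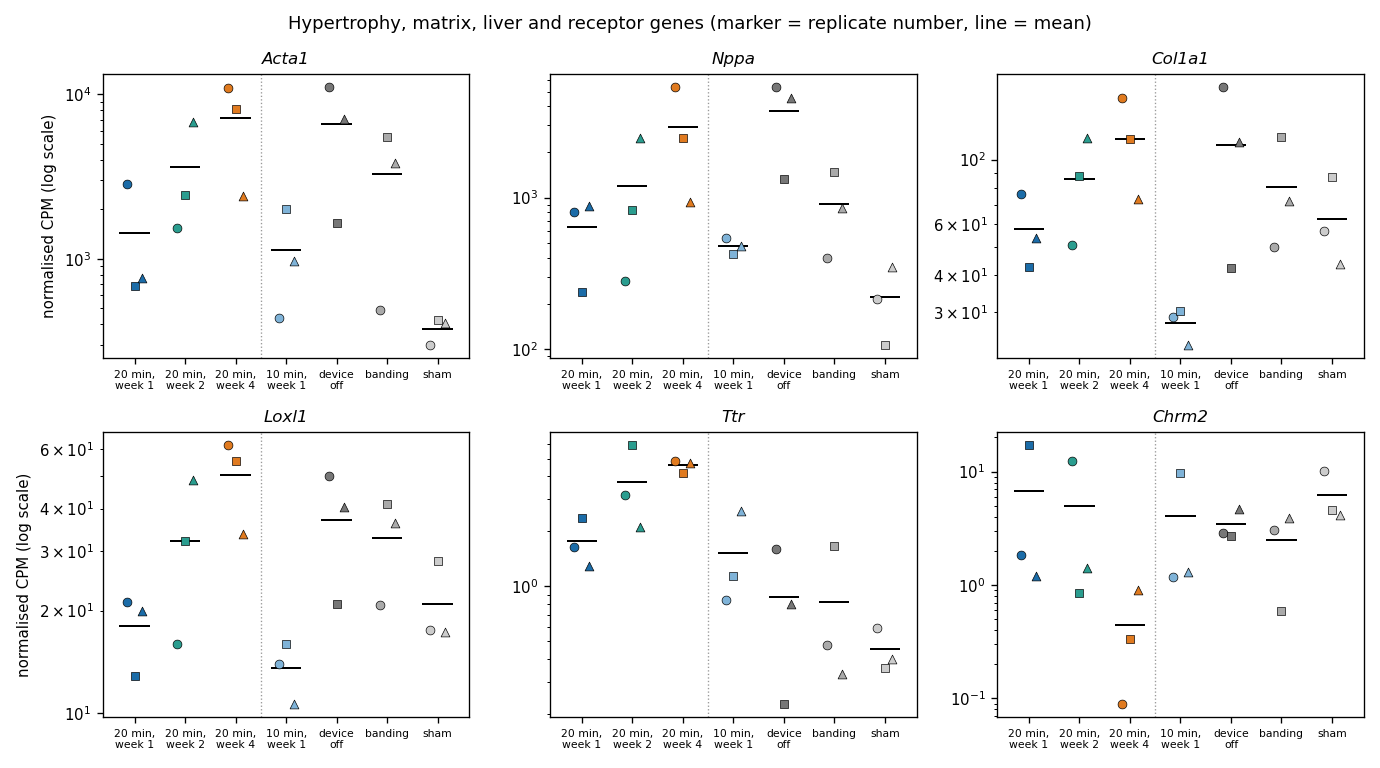
TMM-normalised CPM on a log axis in each library for Acta1, Nppa, Col1a1, Loxl1, Ttr and Chrm2, by group, with the arithmetic group mean as a line and marker shapes for replicate numbers 1, 2 and 3. The first 5 genes are higher on average at later starts, with replicate 3 of week 4 lowest of its group in Acta1, Nppa, Col1a1 and Loxl1, and Chrm2 is highest in 1 library each of week 1 and week 2.

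Transcripts of liver genes were detected in the stimulated hearts. Of the 23 hepatocyte markers tested, 22 had positive slopes, 7 at unadjusted p under 0.05 (Alb, Ttr, Fga, Fgb, Fgg, Cyp2e1 and Cps1) and 0 negative, against 48.35% of all genes with a positive slope and 3.12% at that threshold. Without replicate 3 of week 4 only Alb of these named genes stayed under that threshold (edgeR unadjusted p = 0.00892). The others ranged from 0.0527 in Ttr to 0.385 in Fgb, with slopes still positive. Over all 9 libraries the median slope of the list was 0.36 (0.23 with the covariate, with 6 and 0, against 2.44% and 2.82% of all genes). Their summed level was 65.5 to 112 CPM in week 1, 68.2 to 174 CPM in week 2 and 169.5 to 170.7 CPM in week 4, against 39.6 to 117 CPM in the 10 min group, 12.1 to 16.4 CPM in AB_Implant, 9.67 to 22.5 CPM in AB and 7.244 to 11.48 CPM in Sham.

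Alb, serum albumin of the liver, was at 37.7, 31.5 and 17.5 CPM in week 1, 20.6, 45.5 and 25.5 CPM in week 2, and 60.3, 75.6 and 39.9 CPM in week 4 (slope 0.36 ± 0.12; edgeR adjusted p = 0.423). All week-4 libraries were above all week-1 libraries, and the week-2 group overlapped both. In the 9 libraries of AB_Implant, AB and Sham the highest Alb level was 1.18 CPM. Fga, a fibrinogen chain gene, was at 2.01, 1.15 and 1.5 CPM, 3.84, 6.10 and 1.09 CPM, and 5.01, 1.92 and 18.0 CPM, and did not follow Alb from library to library. Cyp3a11, a liver cytochrome P450 gene, was the member with a negative slope, -0.35 ± 0.24, with 16.0, 9.56 and 5.59 CPM in week 1 and 5.19, 5.42 and 3.28 CPM in week 4. Cyp2c29, a further liver P450 gene outside the list that was chosen after its values were seen, was at 10.05, 11.7 and 5.29 CPM in week 1, 1.71, 2.38 and 10.8 CPM in week 2, and 1.07, 0.667 and 0.820 CPM in week 4 (slope -1.14 ± 0.24; edgeR adjusted p = 0.423; -1.22 ± 0.26 with the covariate). Its order was opposite to that of Alb, with all week-4 libraries below all others of the trend. The source of these transcripts was not tested.

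Of 18 potassium and sodium channel genes tested, 15 had negative slopes without the covariate, 5 at unadjusted p under 0.05, and 0 were positive at that threshold (median -0.27), against 7.36% and 3.12% of all genes. With the covariate 0 were negative and 1 positive (median -0.04), against 2.82% and 2.44%. Abcc9, a regulatory subunit of ATP-sensitive potassium channels, was at 30.3, 146 and 22.0 CPM in week 1, 143, 12.1 and 15.5 CPM in week 2, and 9.49, 13.01 and 16.9 CPM in week 4 (slope -0.82 ± 0.35; -0.09 ± 0.06 with the covariate). Its highest values were those of the pair of long-leaning libraries, and the other 7 lay between 9.49 and 30.3 CPM.

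Of 17 tested cholinergic and adrenergic genes, 3 were negative at unadjusted p under 0.05 (Chrm2 and Adcy6 among them) and 1 positive (Adra1b), against 7.36% and 3.12% of all genes. With the covariate 1 was negative and 0 positive, against 2.82% and 2.44%. At any p, 12 of the 17 slopes were negative without the covariate (median -0.13) and 12 were positive with it (median 0.02). Chrm2, the M2 receptor through which the vagus acts on the heart, was at 1.82, 17.0 and 1.2 CPM in week 1, 12.5, 0.857 and 1.41 CPM in week 2, and 0.0895, 0.334 and 0.902 CPM in week 4. All week-4 libraries were below all week-1 libraries, with overlap in week 2. The highest Chrm2 values were those of the pair of long-leaning libraries, and the other libraries of the trend lay between 0.0895 and 1.82 CPM. The slope was -1.32 ± 0.49 (edgeR adjusted p = 0.423), and -0.35 ± 0.18 with the covariate. Adcy6, an adenylyl cyclase of cardiac myocytes, had a slope of -0.77 ± 0.29 and of -0.21 ± 0.07 with the covariate (edgeR unadjusted p = 0.0242 and 0.0108). It was at 11.3, 12.8 and 13.1 CPM in week 4 against 32.5, 108 and 25.8 CPM in week 1, where the 108 CPM was that of the long-leaning library.

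Genes of the cytosolic ribosome and the respiratory chain changed the sign of their slopes with the covariate. All 50 ribosomal protein genes had positive slopes without it (median 0.14) and 46 had negative ones with it (median -0.05). Of 44 nuclear respiratory chain genes, 40 were positive without it (median 0.13) and 39 negative with it (median -0.04). With the covariate 6 ribosomal genes were negative at unadjusted p under 0.05 and 2 positive, against 2.82% and 2.44% of all genes. The negative ones had slopes from -0.13 in Rpl30 to -0.06 in Rps6. Of the ribosomal genes Rpl13 and Rps2 kept a positive slope at unadjusted p under 0.05 in both fits, Rpl13 with 0.47 ± 0.19 and 0.21 ± 0.07, and Rps2 with 0.36 ± 0.15 and 0.14 ± 0.04.

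Metabolic and growth lists had few members at unadjusted p under 0.05 without the covariate. Of 30 glycolysis and insulin signalling genes 3 were negative (Hk2, Pfkfb2 and Irs2) and Igf1 was positive, with a median slope of -0.02. Of 34 fatty acid oxidation genes 2 were negative (Lpl and Cpt1a, median 0.04), of 19 cell cycle genes 2 (Ccnd2 and Cenpf, median -0.10) and of 18 angiogenesis genes 2 (Nrp2 and Epas1, median -0.22). With the covariate the counts were 2, 1, 1 and 0 negative and 0 positive in each, against 2.82% and 2.44% of all genes. Irs2, an adaptor of the insulin receptor, had a slope of -0.85, and Hk2, the insulin-regulated hexokinase, one of -0.73. These shares are to be read beside the 7.36% of all genes with a negative slope at that threshold.

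**Figure D5:**
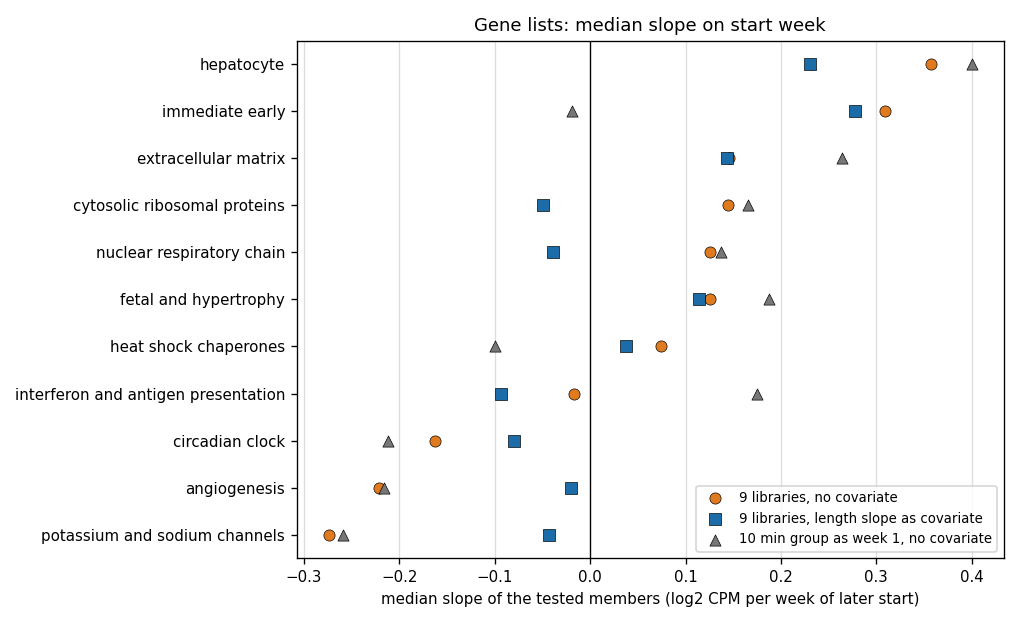
Median slope of the tested members (log2 CPM per week of later start) for 11 gene lists in the fit without covariate, in the fit with the length slope as covariate, and with the 10 min group as week 1 without covariate. Immediate early genes stand at 0.31 and 0.28 in the first pair of fits and at -0.02 in the third, while ribosomal and respiratory chain genes change sign with the covariate.

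The week-2 group did not lie between the others in every gene. The departure of week 2 from the line was tested as its log2 level minus the value of the line between the outer groups, and 0 of 11208 genes passed by edgeR (smallest adjusted p 1.00; 241, or 2.15%, at unadjusted p under 0.05), while DESeq2 called 1, Arntl. The genes of the smallest p are described here.

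Arntl was at 0.566, 0.828 and 0.499 CPM in week 1, 5.94, 4.76 and 5.79 CPM in week 2, and 4.66, 2.42 and 1.15 CPM in week 4. The 3 groups did not overlap, and week 2 stood highest. The departure was 2.40 ± 0.43 on the log2 scale (DESeq2 adjusted p = 0.00780), and the slope on start week was 0.30 ± 0.39. In the 10 min group Arntl was at 2.60, 5.47 and 1.23 CPM, in AB at 0.273, 2.15 and 6.08 CPM and in Sham at 11, 9.4 and 0.502 CPM, a wide spread within each group. Ciart, a clock-controlled repressor, had a departure of the opposite sign (-1.15 ± 0.30) and a slope of 0.18 ± 0.15. It was at 13.8, 13.3 and 14.5 CPM, 4.50, 6.48 and 9.54 CPM, and 13.3, 15.3 and 24.9 CPM, with overlap between week 1 and week 4. The week-2 libraries of Ciart were below all others of the trend.

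Several genes with small p had a positive departure, none of them past edgeR's threshold. Agt, the angiotensin precursor, was at 4.78, 3.25 and 8.29 CPM in week 1, 25.2, 42.4 and 73.0 CPM in week 2, and 66.6, 23.4 and 9.43 CPM in week 4 (departure 2.25 ± 0.58). Nmrk2, a kinase gene of NAD synthesis, was at 5.28, 6.12 and 3.79 CPM, 18.0, 68.1 and 97.7 CPM, and 43.7, 4.00 and 3.28 CPM (departure 3.01 ± 0.81). In both genes week 2 lay above all of week 1, and replicate 1 of week 4 stood with week 2 while the other libraries of that group were lower.

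Pdk4, which limits glucose oxidation, had a departure of 2.62 ± 0.65, with 284, 48.8 and 46.9 CPM in week 2 and at most 41.5 CPM in the outer groups. Angptl4, an inhibitor of lipoprotein lipase, had 2.49 ± 0.59, Tacc2, a centrosome-associated gene, 1.10 ± 0.23, and the chemokine genes Ccl6 and Ccl9 had 1.28 ± 0.27 and 1.27 ± 0.31. Irx4, a transcription factor gene of the ventricle, was lower in week 2, with 15.5, 17.0 and 15.1 CPM against 25.0, 20.3 and 27.6 CPM in week 1 and 22.3, 32.7 and 29.7 CPM in week 4 (departure -0.69 ± 0.19). Ccn5, a secreted matricellular gene, had a departure of -1.40 ± 0.32. In Irx4, Ccn5, Ccl6 and Tacc2 the week-2 libraries did not overlap with either outer group. These genes were picked by a small departure p from the same values, and the share of all genes separated in this way was not counted.

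The outer and neighbouring start groups were also compared as pairs, and each of the 3 comparisons called 0 genes by edgeR. Week 4 against week 1 had 920 genes (8.21%) at unadjusted p under 0.05, week 2 against week 1 had 258 (2.30%) and week 4 against week 2 had 639 (5.70%). DESeq2 called 15, 3 and 0 genes in these. The 3 comparisons share their groups, so their counts are not independent.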

How the data were processed

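Per the labels' protocols, total RNA of the left ventricle with an RNA integrity number above the stated minimum was selected for polyadenylated RNA and sequenced as paired reads. Reads were handled with cutadapt 1.11 (trimming), FastQC 0.11.9, the aligner HISAT2 2.1.0 and the counter featureCounts 1.6.0, and edgeR 3.32.1 under R 4.0.3 is also listed, per the submitters' processing notes, with build GRCm38; the strand setting of the counting is not given in the sources used here. The authors deposited whole-number counts for 22136 genes in 21 libraries, under a name that speaks of normalization. The values were read as raw counts because 100% were whole and because scaling and rounding would leave gaps among low counts that the table lacks. Replicates are labelled biological.

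Genes with at least 1 CPM in at least 3 of the 9 libraries were tested in edgeR 4.0.16 (quasi-likelihood test, R 4.3.3), with TMM factors computed over all 21 libraries. Printed CPM values are TMM-normalised and are not scaled by length, so levels are not compared between genes. SE is the slope over the square root of F. The length slope was fitted per library on the longest GENCODE M21 transcript (22041 of 22136 genes had one), with log2 CPM at a pseudocount of 0.5. Where adjusted p-values recur (0.423), the Benjamini-Hochberg step ties many genes. The departure and the pairwise comparisons came from a model with the 3 groups. No gene being called, named genes were the 8 of the smallest p in each direction and fit, with a symbol of their own, a mean of at least 5 CPM and no overlap between week 1 and week 4, plus a set of always-named genes, of which the text leaves out some; list members and week-2 genes beyond these were chosen after their values were seen. The 36 gene lists, the genes and the comparisons were chosen with earlier results of these data known, and lists are described by counts and medians without a test. Of the marker lists, those of T and NK cells, B cells and lung had 0 tested members. Alternatives were DESeq2 1.42.0, limma 3.58.1, other scalings, filters and covariates, and leaving out libraries. The edgeR trend fit without the covariate was tested on simulated counts with known slopes, and the other fits were not. Antisense and overlapping genes may share reads. Values of some list members are not reported here.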

Additional observations from a re-analysis of the deposited data

How the results depend on the processing

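By edgeR the 6 results (the trend without and with the length covariate, the 3 pairwise comparisons and the departure) called 0 genes as reported, and other settings moved these counts as follows, in that order where given. DESeq2 called 21, 18, 15, 3 and 0 genes and 1 departure. Limma voom with sample weights called 2, 0, 2252, 886 and 2 genes and 231 departures, and its calls on single pairs of groups rest on estimated weights for 3 libraries a group. All 21 libraries in 1 model gave 2 calls in the trend, 20 with the covariate and 2 for week 4 against week 1. The fit with the covariate called 5 genes without the filter, and 1 with the start week as log2 or as rank. Without the libraries of a length slope above 0.3 there were 4 calls in the trend, 22 for week 4 against week 1, 1 for week 2 against week 1 and 4 departures. Leaving out 1 library at a time gave 0 to 9 calls with the covariate (1 without replicate 2 of week 2 and 9 without replicate 3 of week 4) and 0 to 0 in the other 5 results. The replicate block gave 0 calls in each result; same-numbered libraries deviated together in some pairs and apart in others (correlations from -0.725 to 0.512), so the numbers were not taken as pairs. Scaling by library totals alone, by DESeq2 size factors, a mean of 5 CPM, leaving out mitochondrial genes, and mitochondrial share or GC slope as covariate gave 0 calls. Library totals moved the median slope of all genes from -0.01 to -0.13. Slopes that changed sign without the covariate were Myh7 with library totals (-0.0501), and, leaving out single libraries, Myh7 (range -0.0176 without replicate 2 of week 4 to 0.1223 without replicate 1) and Atf3 (range -0.0263 without replicate 1 of week 4 to 1.0003 without replicate 2). With it, Nr1d2 turned to 0.0468 without the libraries of a length slope above 0.3. The cause of these changes was not tested.

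Settings with the 10 min group were added after the data were seen. With it in place of VNS20_1w, the slopes that turned negative without the covariate were those of Hnrnpa0 (-0.19), Myh7 (-0.22), Cebpb (-0.67), Jun (-0.13), Atf3 (-0.17) and Arntl (-0.14). With the covariate they were those of Scand1 (-0.25), Zfp771 (-0.10), Hnrnpa0 (-0.27), Ccdc85b (-0.12), Nkx2-5 (-0.10) and Dnlz (-0.0352). With it added to VNS20_1w they were Myh7 (-0.14), Cebpb (-0.44) and Jun (-0.0088) without the covariate, and Hnrnpa0 (-0.0204) with it. Genes of a few CPM rest on few counts in each library, and slopes smaller than about their SE were not resolved.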

Other observations

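The atrial myocyte list had a median slope of -0.28 without the covariate and -0.35 with it, over 6 tested members. Without the covariate 2 slopes were positive and 4 negative. At unadjusted p under 0.05, 1 was positive and 0 negative, against 3.12% and 7.36% of all genes. With the covariate 0 members reached that threshold. The summed level of the list went the other way from its median slope, with 299.5 to 1067 CPM in week 1, 310.5 to 2483 CPM in week 2 and 1159 to 5442 CPM in week 4. Myl7, the atrial myosin light chain, was at 108, 21.5 and 32.6 CPM in week 1, 4.38, 97.0 and 0.469 CPM in week 2, and 0.179, 0.167 and 83.7 CPM in week 4. Its slope was -0.29 ± 0.58, and the week-4 library with the highest Myl7 was the one with the lowest Nppa, 943 CPM. That is a single library, and a relation of Nppa to atrial genes was not tested.

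Interferon and antigen presentation genes had a median slope of -0.02 without the covariate and -0.09 with it, where 29 of 31 were negative and 5 of them at unadjusted p under 0.05, against 46.08% of all genes with a positive slope in that fit and 2.82% negative at that threshold. With the 10 min group as week 1 the median was 0.18 without the covariate. Heat shock chaperone genes showed positive departures in week 2 in 18 of 18 members, 3 of them at unadjusted p under 0.05, against 58.2% of all genes with a positive departure and 1.18% with one at that threshold.

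In edgeR's fit without the covariate, 3.12% of all genes were positive and 7.36% negative at unadjusted p under 0.05. The lists of adult myocyte and calcium handling genes (18 tested), the mitochondrial genome (13) and the nuclear respiratory chain (44) held 0 members at that threshold. Cytokines (Il33, of 20 tested), antioxidant genes (Txnrd1, of 22) and the unfolded protein response (Herpud1, of 25) held 1 member each with a negative slope there. These counts are near or below the share of all genes and are no result about the lists. Among marker lists other than fibroblast, hepatocyte and atrial, single members reached that threshold. They were Cldn5 of 10 tested endothelial (0.45), Lyve1 of 11 macrophage (-0.39), Abcc9 of 11 smooth muscle and pericyte (-0.82) and Acta1 of 3 skeletal muscle markers (0.73).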
